A study of Homo sapiens with 38 samples.

Results

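The genes described here are 10 negative regulators of MAP kinase signalling: the MAP kinase phosphatases DUSP1, DUSP4, DUSP5, DUSP6, DUSP8, DUSP10 and DUSP16, the Sprouty genes SPRY2 and SPRY4, and the Sprouty-related SPRED2. They were taken from 11456 genes measured above a lower signal limit on 38 Affymetrix U133 Plus 2.0 arrays, through the 23 probe sets that the platform annotation assigns to them. Of these probe sets, 21 passed the limit, which asked for a scaled signal of 45.5 on at least 2 arrays, and each of the 10 genes kept at least 1. The other 2, 1 each for DUSP16 and SPRED2, never exceeded a signal of 26. Where a gene had several probe sets, the one with the highest mean signal stands for it. The genes were chosen by their measured log2 changes in starved HT-29 and HT-1080 cells, so all values of that contrast are given as a description without a test.

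HT-1080 is a fibrosarcoma line and HT-29 a colorectal adenocarcinoma line. The series holds 29 arrays of HT-1080 and 9 of HT-29, in each case counting derivatives called rho0, which lack mitochondrial DNA (mtDNA). Untreated controls numbered 6 for parental HT-1080, 2 for its rho0 derivative, 3 for parental HT-29 and 1 for its rho0 derivative. Parental HT-1080 received 2-deoxyglucose (2DG, a glucose analogue that blocks glycolysis) on 3 arrays, glucose starvation (GS) on 2 and tunicamycin (TM, a blocker of N-glycosylation) on 1, and HT-29 received GS on 3. Stress was combined with metformin (Met, 10 mM), buformin (Bu, 300 µM) or phenformin (Phen, 100 µM), which are biguanides, with the complex I inhibitor rotenone (Rot, 100 nM), with the complex III inhibitor antimycin A (AA, 10 ng/ml) or with versipelostatin (VST, 3 µM), on 1 array each. HT-1080 rho0 cells received 2DG, GS or TM without a compound, and HT-29 rho0 cells GS, again on 1 array each. Exposure lasted 18 h, except for HT-29 rho0 under GS and the third HT-29 GS array, which were taken at 14 h. An S marks preparations that include floating cells. The labels name a control array for each treated array, called its own control here, and several treated arrays can share one. A change below is the log2 difference from that control, on the scale of log2(signal + 5.69). The labels do not say that arrays of a group came from separate experiments, so the p-values cover no more than the spread from array to array.

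MAP kinases such as ERK, JNK and p38 are switched on by phosphorylation of a threonine and a tyrosine in their activation loop, and the MAP kinase phosphatases remove both phosphates. Many of these phosphatases are transcribed in response to the kinases they switch off, which closes a feedback loop. Sprouty and SPRED proteins act further up, between growth factor receptors, Ras and Raf, and are also part of the feedback on ERK. DUSP1, DUSP4 and DUSP5 are nuclear, DUSP6 is cytoplasmic and acts on ERK, DUSP5 also prefers ERK, and DUSP8, DUSP10 and DUSP16 prefer JNK and p38.

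Upstream sequence was searched for motifs in all of the 10 genes for which a promoter was available. RefSeq promoters (GRCh38.p14, from 250 bases before to 50 bases after a start site) were matched for 8 of the 10 genes, all but DUSP4 and DUSP5, through 12 promoters. The cAMP response element TGACGTCA, a site for CREB and ATF factors, was found in 2 of the 12, those of DUSP1 and DUSP8, and in 1.85% of all 35116 promoters. DUSP1 held 1 such element, starting 125 bases before the start site, and its core TGACG matched 4 times over both strands. DUSP8 held 2 elements, at 118 and 74 bases before the start site. Only 0.0598% of all promoters held 2 or more. Each full element is its own reverse complement and so contains 2 of the core matches. The core was present in 6 of the 12 and in 24.6% of all promoters. Another 7 motifs were searched on both strands. The SP1 motif GGGCGG was in 9 of the 12 (45.0% of all promoters), CCAAT in 4 (34.6%) and the ETS motif GCGGAAG in 3 (7.21%). The AP-1 motif TGANTCA was in 1 (7.71%), the C/EBP-ATF composite TGATGNAA in 1 (3.62%), the E-box CACGTG in 1 (7.26%) and the CArG box in 0 (1.29%). A match is a description of the letters and not a measured binding site. The DUSP1 stretch is chr5:172771196-172771445 and the DUSP8 stretches are chr11:1572372-1572399 and chr11:1572328-1572355, all on the minus strand and written 5′ to 3′, with matches to the element or its core in capitals in DUSP1 and to the full element in DUSP8.
DUSP1: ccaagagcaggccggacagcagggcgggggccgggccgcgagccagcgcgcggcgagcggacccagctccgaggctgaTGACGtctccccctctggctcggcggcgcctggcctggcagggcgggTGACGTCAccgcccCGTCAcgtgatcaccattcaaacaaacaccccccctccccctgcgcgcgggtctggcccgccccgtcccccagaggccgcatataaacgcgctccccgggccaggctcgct
DUSP8 distal: cgggctccgcTGACGTCAcctgcccccg
DUSP8 proximal: tggctgcaggTGACGTCAggggcttttt

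The arrays carried the labels' lines and mtDNA status. Marker means were taken over all arrays of a line, treated and rho0 arrays included. Of the colon epithelial markers, 8 were measured and all had a higher mean in HT-29. All 6 measured mesenchymal markers had a higher mean in HT-1080. EPCAM had a mean signal of 5377 in HT-29 and 5.02 in HT-1080, and VIM 32.7 and 10645. All 10 probe sets of mtDNA-encoded genes were lower in the rho0 controls of both lines, with median log2 differences of -9.66 in HT-1080 and -10.16 in HT-29. The deposited trimmed mean signal lay between 89.5 and 102 on the arrays that combined 2DG with a respiratory inhibitor and between 123 and 128 on those with 2DG alone. All arrays were therefore scaled to 1 trimmed mean.

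Without stress, DUSP1, DUSP5 and SPRY2 were higher in HT-1080 and DUSP6 in HT-29. Of the 10 genes, 5 were higher in every HT-1080 control than in every HT-29 control, against 27.6% of all genes, and 2 were higher in every HT-29 control, against 23.8%, which is near the share of all genes. DUSP1 had signals of 521 to 1393 (median 884) in the 6 HT-1080 controls and of 109, 120 and 108 in HT-29. DUSP5 had 1443 to 2328 (median 1632) in HT-1080 and 86.2, 82.8 and 112 in HT-29. The mean difference was 7.32-fold for DUSP1 and 17.6-fold for DUSP5.

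SPRY2 had signals of 571 to 849 (median 747) in HT-1080 controls and 172, 98.6 and 242 in HT-29, 4.42-fold higher in HT-1080. SPRY4 was 2.38-fold higher there. DUSP10 had 128 to 177 in HT-1080 and 12.1, 24.1 and 18.7 in HT-29, where it lay under the lower limit. DUSP6 stood the other way, with 353, 553 and 585 in HT-29 and at most 18.1 in HT-1080, so that the ERK phosphatase DUSP6 was measured above the limit only in HT-29. DUSP8 was under the limit in the controls of both parental lines, with 30.1 to 36.1 in HT-29 and 12.6 to 21.9 in HT-1080. The controls of the lines overlapped for DUSP4, DUSP16 and SPRED2.

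Under glucose starvation 4 phosphatases, DUSP1, DUSP5, DUSP8 and DUSP16, were higher by at least 1 on the log2 scale on all 3 HT-29 arrays. Over all genes 1.2% did so. In HT-1080 none of the 10 genes did so on both arrays, against 1.9% of all genes. No gene of the 10 was lower by at least 1 on every starved array of HT-29 (0.402% of all genes) or of HT-1080 (1.84%). With the probe set used, the same 4 genes were also the ones whose 3 HT-29 changes all lay above both HT-1080 changes, as did 12.7% of all genes. Because these genes were picked for this contrast, nothing is read from the counts.

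The DUSP1 signal in HT-29 was 109, 120 and 108 in the controls and 2034, 4413 and 787 in the matching starved cultures. The changes were 4.15, 5.14 and 2.80 (mean 4.03 ± 1.17, SD, n = 3), the smallest being that of the 14 h culture. In HT-1080 the starved signals were 1371 and 364, with changes of 0.90 and -1.92 from their controls at 731 and 1393. The HT-1080 arrays thus moved in opposite directions, and their controls differed as well. The fitted HT-29 minus HT-1080 difference was 4.54, and it was 3.13 without HT-1080 GS replicate 2 and 5.95 without HT-1080 GS replicate 1.

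DUSP5 changed by 3.50, 4.79 and 2.39 in HT-29 (mean 3.56 ± 1.20, SD, n = 3) and by 0.88 and 0.06 in HT-1080, a difference of 3.09. Its signal reached 1031, 2449 and 610 in starved HT-29 and was 2660 and 2432 in starved HT-1080. The starved levels of the lines overlapped for DUSP5, through the highest HT-29 array, and for DUSP1 as well, while their control levels did not. The line with the larger change was thus the line with the lower starting level for both genes.

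DUSP8 changed by 1.15, 3.17 and 1.44 in HT-29, reaching signals of 73.7, 371 and 102, and by 1.02 and -0.30 in HT-1080, where it stayed under the limit. DUSP16, which acts on JNK and p38, changed by 1.52, 1.61 and 1.29 in HT-29 (mean 1.47 ± 0.17, SD, n = 3) and by 0.84 and 0.21 in HT-1080. Its HT-29 arrays lay closest together of the 10 genes. SPRY2 was lower on all 3 starved HT-29 arrays, by -0.71, -0.51 and -1.03, and lower on both HT-1080 arrays, by -0.25 and -0.56, so the lines overlapped. DUSP10 was the 1 gene with all HT-29 changes (0.17, 0.46 and -0.24) below both HT-1080 changes (0.59 and 0.62), as were 14.8% of all genes, and its HT-29 signals were under the limit. The changes of the lines overlapped for DUSP4, DUSP6, SPRY4 and SPRED2. The median difference between lines was 0.72 over the 10 genes and -0.02 over all genes.

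The probe sets of 1 gene did not always move together. For DUSP1, the line difference was 4.54 for the probe set used, 4.33 for another and 0.48 for the third, whose signals in HT-29 were 41.8, 62.1 and 28.8 in controls and 47.1, 56.6 and 44.0 under GS. The DUSP8 probe sets differed by 1.56 and 1.19 between lines, and the 3 DUSP16 sets by 0.95, 0.84 and 0.53. On single HT-29 arrays the other DUSP8 set changed by as little as 0.92 and a DUSP16 set by 0.86, both under 1. The third DUSP16 set overlapped between lines, at 1.12 on HT-29 replicate 3 and 1.19 on HT-1080 replicate 2. The other DUSP10 set overlapped too, with 0.52, 0.94 and -0.16 in HT-29 and 0.95 and 0.50 in HT-1080.

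**Figure D1:**
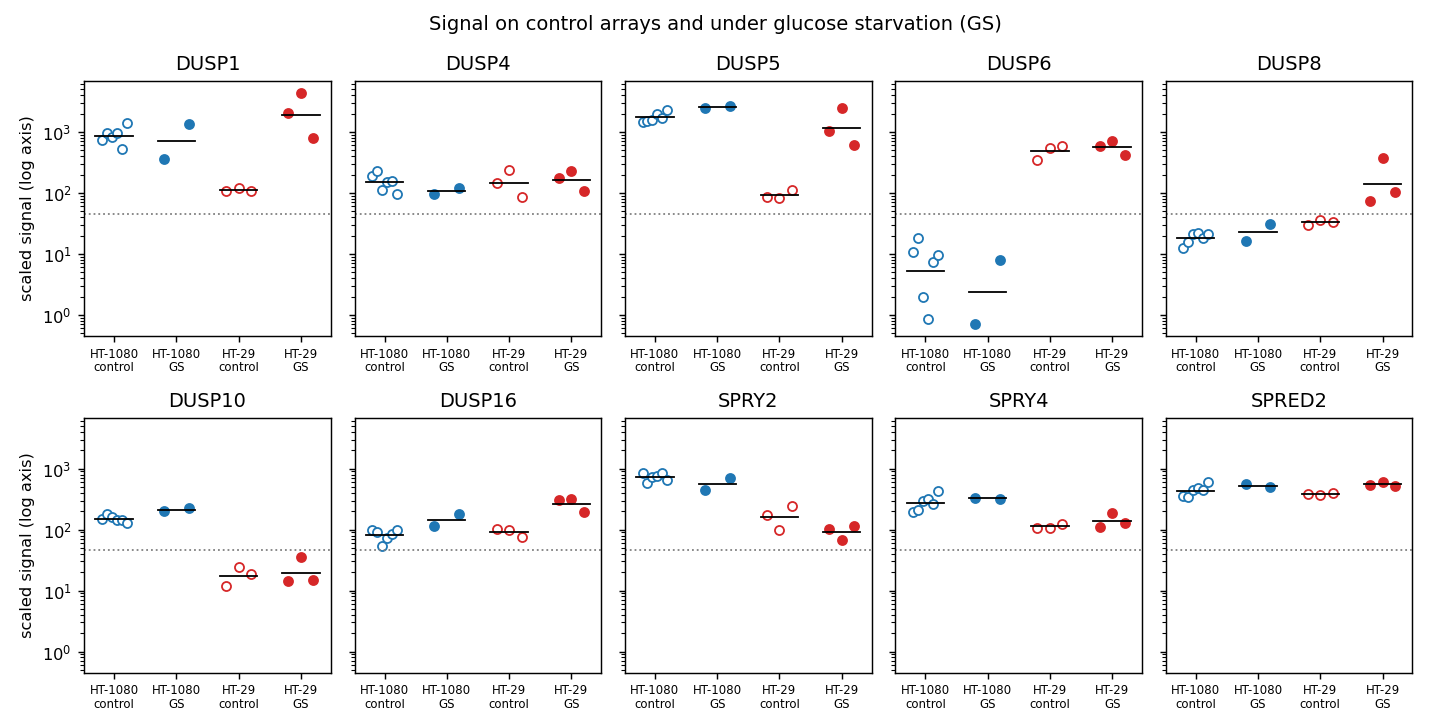
Scaled signal (log axis) of each gene on every control array (open circles) and GS array (filled circles) of parental HT-1080 (blue) and HT-29 (red), with the mean of log2 values as a bar and the lower limit of 45.5 as a dotted line. DUSP1 and DUSP5 lie at 82.8 to 120 in HT-29 controls and at 610 to 4413 in starved HT-29, while DUSP6 lies above the limit only in HT-29.

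HT-29 rho0 cells at 14 h of GS had changes of 1.78 for DUSP1, 3.56 for DUSP5 and 0.89 for DUSP8, beside 2.80, 2.39 and 1.44 in parental HT-29 at the same time. DUSP16 changed by -0.27 in HT-29 rho0, from a control signal of 216, and by 1.29 in the parental culture, from 76.8. In HT-1080 rho0 under GS, a preparation with floating cells, DUSP1 changed by 1.40, DUSP5 by 1.21, DUSP10 by 1.60 and SPRY2 by 1.27. The SPRY2 change in HT-29 rho0 was -1.20. Each rho0 value rests on 1 treated array and 1 control. The deposited trimmed mean was 96.3 with GS and 110 in the control for HT-29 rho0, and 90.2 and 117 for HT-1080 rho0. Its part was not tested.

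VST, a compound reported to block the unfolded protein response of cells short of glucose, went with lower signals of most of these genes in starved HT-29. Against the GS array with the same control, 7 of the 10 genes were lower by at least 1 on the log2 scale, against 18.4% of all genes, and none was higher by as much, against 8.62%. That GS array is among those that chose the genes, so nothing is read from these counts. Against the untreated control, 5 of the 10 genes were lower with VST by at least 1 (18.8% of all genes) and 3 were higher (6.91%). DUSP1 was 2034 under GS and 229 with VST added, a difference of -3.12. SPRED2 was 545 and 78.7, a difference of -2.71. DUSP6 was 588 and 27.5, a difference of -4.16, and DUSP16, SPRY2, SPRY4 and DUSP8 differed by -2.86, -2.27, -2.21 and -1.55. With VST these 5 genes were all under the lower limit, at 27.5 for DUSP6, 37.3 for DUSP16, 16.9 for SPRY2, 18.9 for SPRY4 and 21.5 for DUSP8, so the size of their differences depends on the offset. With signals under the limit raised to it, the differences were -3.54, -2.61, -1.09, -1.16 and -0.63, and 6 of the 10 genes were still lower by at least 1.

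The other 3 genes were not lower by as much. DUSP5 was 1031 under GS and 873 with VST, a difference of -0.24, so that it stayed 3.26 above its control while DUSP1 was only 1.03 above. DUSP4 was higher with VST, at 345 against 175, a difference of 0.96, and DUSP10 differed by 0.73 at signals under the limit on both arrays. Other probe sets of a gene did not always move with the one used. The other DUSP8 set was 42.9 under GS and 46.1 with VST, the other DUSP16 sets differed by 0.28 and -0.67, the other DUSP4 sets by -1.14 and -2.21, and the dimmest DUSP1 set by 0.08. The other sets of DUSP6, at -2.31 and -4.51, and of SPRED2, at -1.10, were lower as well.

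In starved HT-1080, VST went with 2 genes lower by at least 1 (12% of all genes), SPRED2 at -1.80 and DUSP16 at -1.48. It went with 1 gene higher (4.37%), SPRY2, which was 713 under GS and 3562 with VST, a difference of 2.31. The other DUSP16 sets differed by 0.07 and -0.49 there. SPRY2 therefore differed in opposite directions with VST in the lines. There is 1 array on each side, so these differences have no replicate check. The HT-1080 GS array also helped choose the genes. The deposited trimmed mean was 89.6 on the HT-29 array with VST and 122 on its partner. In HT-1080 it was 96.3 with VST and 128 on the partner. The part of the trimmed mean in these differences was not tested.

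**Figure D2:**
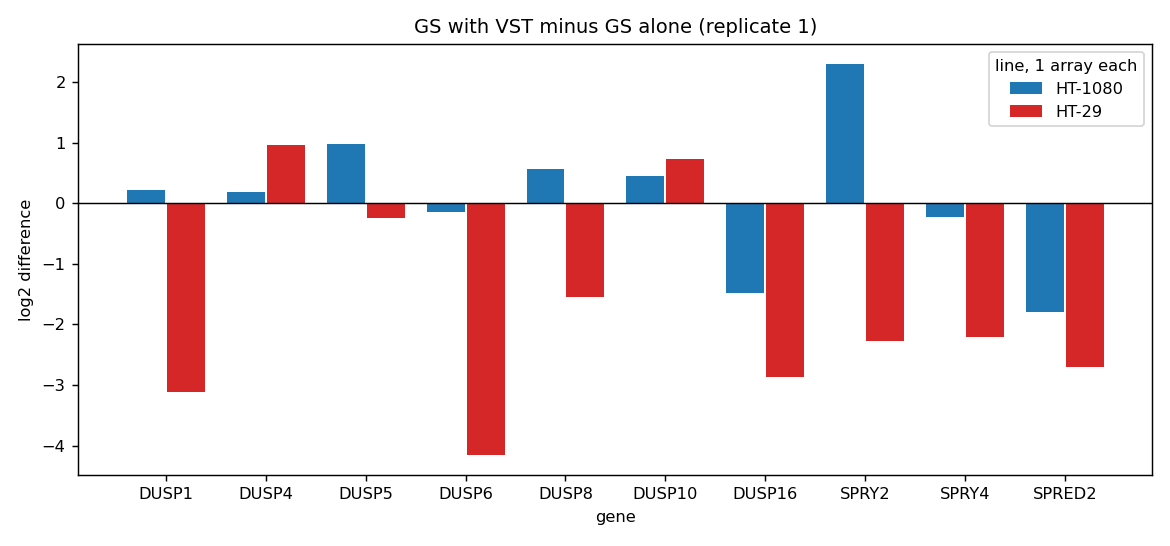
Log2 difference between the array with GS and VST and the GS array with the same control (replicate 1), for each gene, in HT-1080 (blue) and HT-29 (red), with 1 array on each side and so no error bars. SPRY2 is 2.31 in HT-1080 and -2.27 in HT-29, and SPRED2 and DUSP16 are below 0 in both lines. In HT-29 with VST, DUSP6, DUSP8, DUSP10, DUSP16, SPRY2 and SPRY4 had signals under the lower limit.

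The arrays with 2DG alone were not used in choosing the genes, and were tested over all genes with limma and Benjamini-Hochberg adjustment. The spread in this test is shared over replicated groups, and of its 5 residual degrees of freedom 3 come from the starved arrays that did choose them. In HT-1080, 1 of the 10 genes rose with 2DG, against 4.9% of all genes, and none fell, against 3.37%, nor was any lower at an unadjusted p under 0.05 in limma. The gene was DUSP16, with signals of 137, 194 and 131 against 91.9, 74.0 and 83.3 in the matching controls. The DUSP16 signal was above its control on all 3 arrays, by 0.83 on the log2 scale (SE 0.21, limma adjusted p = 0.0334). All 3 of its probe sets that passed the limit rose when each was tested separately, by 1.49, 0.83 and 0.83. The call was lost when any 1 of the 3 arrays was left out (change between 0.59 and 0.97, limma adjusted p between 0.103 and 0.307).

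DUSP1 was below its control on all 3 arrays with 2DG, by -0.78, -0.48 and -0.78, without passing the test (limma adjusted p = 0.388). Its other probe sets changed by -0.79, 0.05 and -0.17, and by -0.15, -0.17 and -0.31. DUSP5 was above its control by 0.89, 0.74 and 0.41 (limma adjusted p = 0.218), and it passed when only parental HT-1080 arrays entered the fit (0.68, limma adjusted p = 0.00421). When the 5 GS arrays of the parental lines were left out of the fit, an alternative added after the data were seen, 3 of the 10 genes rose with 2DG, against 13.2% of all genes, and 1 fell, against 12%. These were DUSP16 (limma adjusted p = 0.0103), DUSP5 (limma adjusted p = 0.00103) and SPRY4 (0.38, limma adjusted p = 0.0268), and DUSP1, which fell by 0.68 on the log2 scale (SE 0.10, limma adjusted p = 0.000849). That fit has 2 residual degrees of freedom, from the 3 arrays with 2DG alone. Whether DUSP1 and SPRY4 passed thus depended on whether the starved arrays entered the fit. DUSP5 also passed in the fit of parental HT-1080 arrays, which kept the starved HT-1080 arrays. SPRY2 had changes of 0.12, 0.29 and -0.24 with 2DG, on both sides of its controls.

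The next comparison asked what a respiratory inhibitor adds to 2DG. The 5 arrays with a biguanide, Rot or AA were compared as 1 class with the 3 arrays with 2DG alone, so the spread between compounds counts as error. Of the 10 genes, 5 rose (SPRY2, DUSP1, DUSP6, DUSP10 and DUSP5), against 12.7% of all genes, and 2 fell (DUSP16 and SPRED2), against 21.7%. One of the 5, DUSP6, passed the signal limit through HT-29 arrays and was under it on all 24 arrays of parental HT-1080. The same 7 genes passed with the parental GS arrays left out of the fit. Counted by array, 6 (Met), 7 (Bu), 6 (Phen), 5 (Rot) and 2 (AA) of the 10 genes were at least 1 above their own control on the log2 scale, where 6.02%, 6.19%, 6.7%, 4.56% and 3.04% of all genes were. DUSP6, under the limit, is 1 of the genes counted on each array but AA. The 3 biguanide arrays share 1 control and Rot and AA share another, so these counts are not independent of each other. The median difference was 0.71 over the 10 genes and -0.12 over all genes.

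SPRY2, a Sprouty gene, had signals of 622, 934 and 711 with 2DG alone. With 2DG and an inhibitor it had 4567 (Met), 7795 (Bu), 6230 (Phen), 7268 (Rot) and 2863 (AA). Every array with an inhibitor was above every array with 2DG alone, and the AA array was the lowest of the 5. SPRY2 rose by 2.59 (SE 0.41, limma adjusted p = 0.000128), and the call held in the alternatives that were run.

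DUSP1 had 547, 694 and 302 with 2DG alone and 2231, 1659, 1699.5, 1949.8 and 1613 with Met, Bu, Phen, Rot and AA. The groups did not overlap, and DUSP1 rose by 1.58 (SE 0.44, limma adjusted p = 0.00926). Relative to untreated controls the DUSP1 probe set used was thus lower on every array with 2DG alone. It was higher, by 0.73 to 1.43, on every array with an inhibitor. The other DUSP1 probe sets differed by 1.31 and 0.28 without passing when tested separately (limma adjusted p = 0.0704 and 0.527). DUSP5 rose by 1.08 (SE 0.35, limma adjusted p = 0.0238), from 2273 to 3249 with 2DG alone to 4307 to 7839 with an inhibitor.

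DUSP10 rose by 1.10 (SE 0.37, limma adjusted p = 0.0277), with 493, 883, 782 and 524 for Met, Bu, Phen and Rot but 191 for AA, inside the range of 182 to 201 with 2DG alone. The other DUSP10 probe set differed by 0.05. DUSP6 rose by 1.51 (SE 0.50, limma adjusted p = 0.0262), but its signals of 5.44 to 27.6 with an inhibitor were under the lower limit on all 5 arrays, and its other 2 probe sets differed by -0.53 and 0.01. DUSP8 did not pass, and its 5 inhibitor arrays ranged from 3.24 to 40.

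DUSP16 fell by 1.10 on the log2 scale (SE 0.28, limma adjusted p = 0.00561), with 57.3, 54.8, 48.1, 93.8 and 46.8 in the order of compounds above against 131 to 194 with 2DG alone. Its 2 other probe sets differed the other way, by 0.34 and 0.64, without passing. SPRED2, which restrains Raf activation, fell by 0.91 (SE 0.20, limma adjusted p = 0.00184), from between 466 and 534 to between 241 and 386, with no overlap. The other SPRED2 probe set past the limit differed by -0.17 (limma adjusted p = 0.752). SPRY4 differed by -0.15 and DUSP4 by 0.33, neither passing. The other 2 DUSP4 probe sets passed when tested separately, at -0.86 and -1.66 (limma adjusted p = 0.0426 and 0.00197).

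Some of these calls depended on the scaling and on single arrays. With the deposited scaling the median over all genes was -0.47, the share of genes called turned to 367 that rose and 4591 that fell from 1458 and 2490, and the calls of DUSP5 and DUSP10 were lost. Without 2DG replicate 2, the 1 array that shares its control with Rot and AA, only 2 of the 10 genes passed, and without Rot 4 did.

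**Figure D3:**
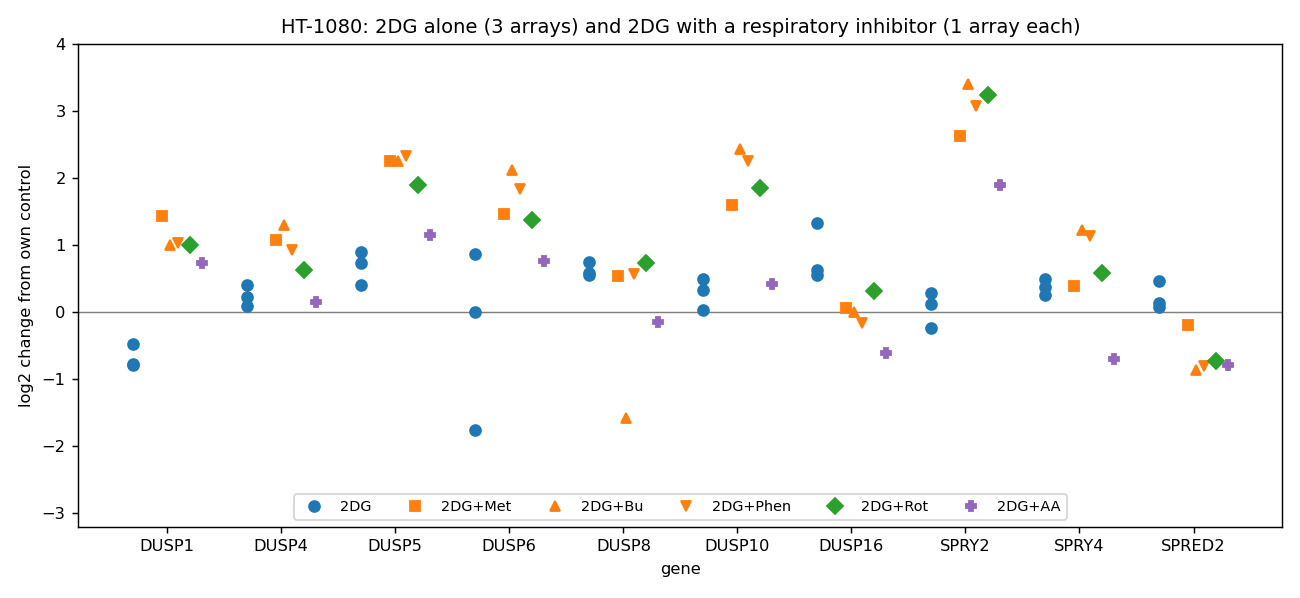
Log2 change from the own control for each gene in parental HT-1080 with 2DG alone (blue circles, 3 arrays) and with 2DG plus Met, Bu or Phen (orange), Rot (green) or AA (purple), 1 array each. SPRY2 lies between -0.24 and 0.29 with 2DG alone and between 1.90 and 3.40 with an inhibitor, and AA has the lowest value among inhibitors for DUSP1, DUSP4, DUSP5, DUSP6, DUSP10, DUSP16, SPRY2 and SPRY4.

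The biguanides were given at different doses, so their values are set side by side only. The DUSP10 change was 1.60 with Met, 2.43 with Bu and 2.26 with Phen, and the DUSP5 change was 2.25, 2.26 and 2.33. DUSP8 separated them most, with 0.54, -1.58 and 0.57, all at signals under the limit. The other DUSP8 probe set did not share this order, with 1.62, 1.42 and -0.01, also at signals under the limit. Within the set of arrays with 1 control, Rot differed from 2DG alone by 2.95 for SPRY2 and AA by 1.61, and for SPRY4 the values were 0.09 and -1.20.

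Another 2 conditions under 2DG gave values on the same side for SPRY2, DUSP5 and DUSP10. With VST, which is not grouped with the respiratory inhibitors here, the changes were 2.62 for SPRY2, 1.96 for DUSP5 and 1.48 for DUSP10, and 5 of the 10 genes, DUSP6 under the limit among them, were up by at least 1 (5.05% of all genes). In HT-1080 rho0 with 2DG and no compound they were 3.44, 3.03 and 3.01, and again 5 genes were up by at least 1 (4.34%). DUSP1 reached 4970 there from 521 in its control, a change of 3.24, the highest among HT-1080 arrays of either kind. SPRED2 changed by -1.30 with VST and -1.64 in rho0 cells. The other DUSP10 probe set changed by 0.05 with VST and 0.88 in rho0 cells. Each of these rests on 1 array. The VST array has the same control as the 3 biguanide arrays, so its changes are not independent of theirs. The deposited trimmed mean was 99.0 with VST and 129 in its control, and 91.3 and 112 for rho0 cells. The part of the trimmed mean was not tested.

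The inhibitors were also combined with GS and with TM. Against the GS array with the same control, DUSP1 differed by 1.47 with Rot, 1.35 with Rot including floating cells and 0.91 with AA including floating cells, and SPRY2 by 1.19, 1.11 and 0.75. DUSP16 differed by -1.22, -1.18 and -1.86, and SPRED2 by -1.26, -1.33 and -1.15. DUSP5, which rose with inhibitors under 2DG, differed here by 0.00, 0.06 and -0.24. The GS array used here, replicate 2, had a DUSP1 signal of 364, and GS replicate 1 had 1371. With Rot or AA the DUSP1 signals were 1019, 936 and 690, all below GS replicate 1. They were also below their own control, with changes of -0.45, -0.57 and -1.01. The direction for DUSP1 thus depended on the GS array, and both GS arrays helped choose the genes. The ratio of 3′ to 5′ ACTB signal, a measure of RNA integrity, was 1.51, 1.67 and 1.76 with Rot or AA and 1.42 on GS replicate 2. The deposited trimmed mean was 98.5, 96.9 and 95.7 with Rot or AA and 126 on GS replicate 2. The part of either was not tested.

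TM alone went with the lowest DUSP1 change of all 26 treated arrays, -2.54, at a signal of 235. The control of this array is the one with the highest DUSP1 signal of the 6, but 235 is also below the lowest of them, 521. With Rot, SPRY2 was 2.16 and DUSP10 1.30 above TM alone, and with AA SPRY2 was 0.35 above. The other DUSP10 probe set had a signal of 139 with Rot and 140 with TM alone. DUSP1 stayed low with Rot and with AA, at changes of -1.95 and -2.27. In HT-1080 rho0 under TM the DUSP1 change was -0.74.

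**Figure D4:**
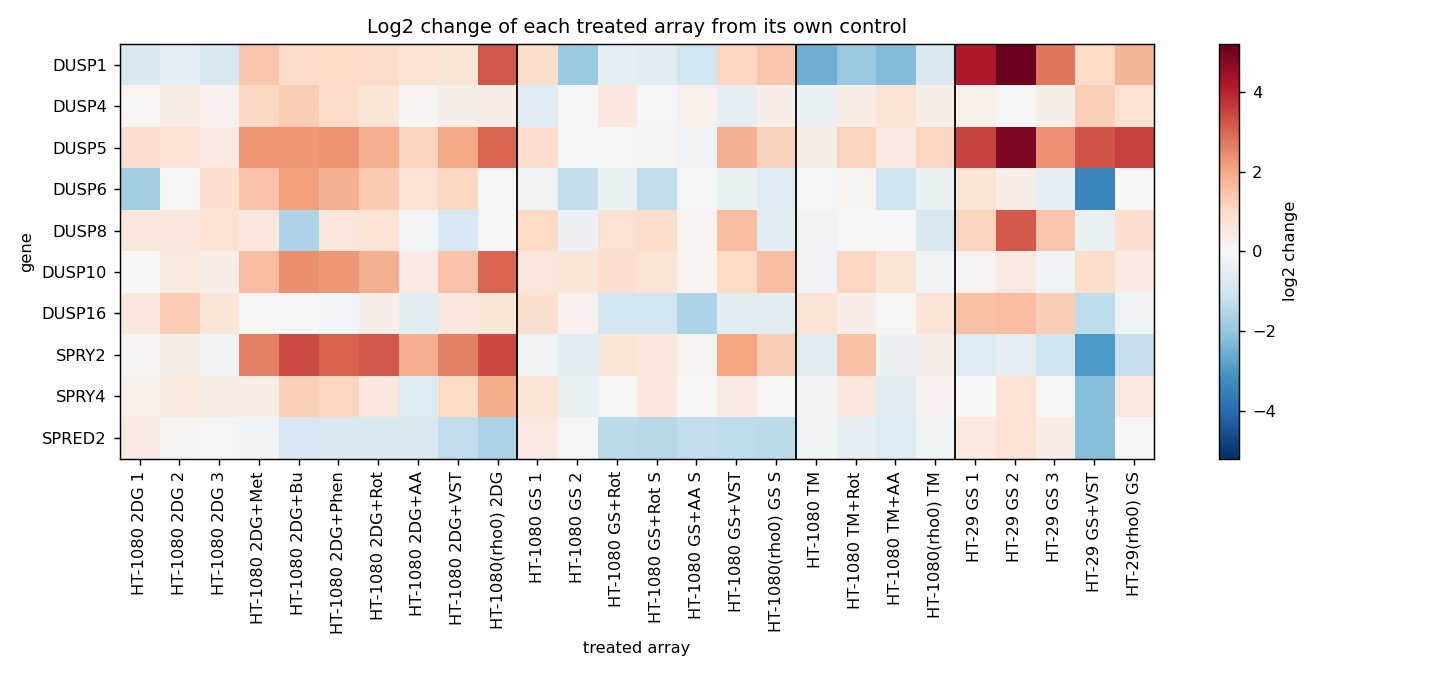
Log2 change of each of the 26 treated arrays from its own control (colour scale, red higher and blue lower) for the 10 genes, with vertical lines between HT-1080 under 2DG, GS and TM and HT-29. SPRY2 lies at 1.90 to 3.44 on the 2DG arrays with a compound or in rho0 cells, and DUSP1 and DUSP5 lie at 2.39 to 5.14 on the 3 starved parental HT-29 arrays without VST.

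In unstressed HT-1080, loss of mtDNA went with a change of 2 of the 10 genes by limma with Benjamini-Hochberg adjustment. DUSP5 fell, as did 6.95% of all genes, from 1443 to 2328 in 6 parental controls to 824 and 834 in 2 rho0 controls, by 1.05 on the log2 scale (SE 0.18, limma adjusted p = 0.00179). DUSP8 rose, as did 6.15% of all genes, by 1.04 (SE 0.27, limma adjusted p = 0.0222). Its signals were 12.6 to 21.9 in parental controls, under the lower limit, and 34.4, also under it, and 55.1 in rho0 controls. The size of this change thus depends on the offset. DUSP8 reached the limit on 7 arrays in the series, among them the 3 starved HT-29 arrays that helped choose the genes. The other DUSP8 probe set differed by 0.11 (limma adjusted p = 0.896). The DUSP8 call was lost without either rho0 array (limma adjusted p = 0.0545 and 0.292). DUSP1 differed by -0.75 (limma adjusted p = 0.0671) and DUSP10 by -0.64 (limma adjusted p = 0.0714), and both passed with the deposited scaling, under which 362 genes rose and 1635 fell in place of 704 and 796. DUSP4 did not pass with the probe set used, at -0.81, but its 2 other probe sets passed when tested separately, at -1.08 and -1.18 (limma adjusted p = 0.0216 and 0.0195). HT-29 rho0 had 1 control, with DUSP16 at 216 against 76.8 to 103 in parental HT-29 and DUSP8 at 75.3 against 30.1 to 36.1.

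The genes around these regulators were taken from 3 lists. Of other family members, 8 of 11 were measured. With 2DG none passed in limma, and 1, DUSP22, had an unadjusted p under 0.05. With inhibitors none rose, with 1, DUSP14, higher at an unadjusted p under 0.05, and 2 of the 8 fell, a share near the 21.7% of all genes: SPRED1 fell by 1.59 and DUSP7 fell by 0.83 (limma adjusted p = 0.00130 and 0.0122). In the rho0 controls 2 of the 8, DUSP3 and DUSP14, rose, against 6.15% of all genes. Under GS the difference between lines was largest for DUSP2, at 1.31, with a range of -0.17 to 3.49 over the HT-29 arrays.

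Of genes transcribed downstream of ERK, 15 of 17 were measured. With 2DG, 1 of the 15 rose, against 4.9% of all genes. It was EGR1, an immediate-early transcription factor, which rose by 2.65 (limma adjusted p = 0.0103). With inhibitors 4 of the 15 rose, against 12.7% of all genes, and 2 fell, against 21.7%: EGR1 rose by 4.29, MYC by 3.18, PHLDA1 by 1.45 and FOSL1 by 0.85, while ETV5 fell by 1.20 and ETV1 by 1.04. ETV5 and ETV1 thus changed in the opposite direction to MYC, and ETV4 did not pass, at -0.45 (limma adjusted p = 0.138). The list's median was 0.30, beside -0.12 over all genes. In the rho0 controls 1 of the 15, IER2, rose and 1, ETV1, fell, against 6.15% and 6.95% of all genes. Under GS the HT-29 minus HT-1080 difference was 3.08 for HBEGF, a ligand of the EGF receptor, and 2.14 for FOSL1, but -1.29 for MYC and -1.69 for EGR1. The EGR1 changes of the lines overlapped, at 3.61 to 4.02 in HT-29 and 3.54 to 7.41 in HT-1080. The median EGR1 signal of the HT-1080 controls was 35.1, under the lower limit.

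Of the Ras, ERK, JNK and p38 cascade, 19 of 28 genes were measured. With inhibitors 3 of the 19 rose (MAP2K6, MAPK8 and MAPK3), near the 12.7% of all genes, and 7 fell, against 21.7%. Among those that fell, the Ras exchange factor SOS2 fell by 2.50, its relative SOS1 fell by 0.99 and MAP3K5, a kinase upstream of JNK and p38, fell by 0.99. MAP2K6, a kinase that activates p38, rose by 1.53 with inhibitors and fell by 1.66 with 2DG. It was also lower in rho0 controls, where it fell by 2.43. With 2DG 2 of the 19, EGFR and MAPK13, rose, against 4.9% of all genes, and 1, MAP2K6, fell, against 3.37%.

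Likeness of pattern was measured by Pearson's r of the log2 change over the 26 treated arrays, which share 12 controls and hold several treatments of the same line, so r is a description. DUSP1 was most like PMAIP1, ATF3 and HBEGF (r = 0.88 for each), and DUSP5 most like ERRFI1 (0.94), PPP1R15A (0.89) and HBEGF (0.89). SPRY2 was most like C3orf38, DYRK2 and MYC (0.93, 0.93 and 0.92), and SPRED2 most like CAMSAP2, ETF1 and PRDM4 (0.93, 0.92 and 0.91). DUSP16 was most like SCARB2, HAPSTR1 and DENND5A (0.88, 0.88 and 0.87), and DUSP10 most like RPF1, NDST1 and C2orf49, each at 0.89. For DUSP4, DUSP6, DUSP8 and SPRY4 the highest r was 0.79 (USP4), 0.82 (WAPL), 0.74 (ABHD3) and 0.83 (KBTBD2).

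Among the 10 genes themselves, r was 0.86 for DUSP1 and DUSP5, 0.77 for DUSP10 and SPRY2, 0.77 for DUSP16 and SPRED2 and -0.52 for DUSP10 and SPRED2. DUSP1 and SPRY2, the genes with the largest changes in starved HT-29 and with inhibitors under 2DG, had an r of 0.09.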

How the data were processed

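RNA of 38 cultures was measured on 1 Affymetrix U133 Plus 2.0 array each. What the authors deposited are linear intensity values made with MAS5, per the submitters' processing notes, and the scaling target is not given in the sources used here. The table holds 54675 probe sets, of which 232 have a missing value on up to 11 arrays and were left out. The analysis kept to the 41097 probe sets with 1 symbol, leaving out 1801 that list more and 11777 that list no symbol. Detection calls were not used here.

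Each array was scaled to a 2% trimmed mean of 114, and log2 was taken after adding 5% of it. Probe sets that reached 40% of it on at least 2 arrays were kept (21480, for 11456 genes), with the highest mean standing for a gene. Genes were tested with limma 3.58.1 (R 4.3.3) with an intensity trend and Benjamini-Hochberg adjustment over 11456 genes at 0.05. The own control named in the labels was a fixed block in the 2DG fit (5 residual degrees of freedom, 3 of them from GS arrays) and the inhibitor fit (11). Controls were fitted alone (8). A treatment with 1 array is assumed to vary like the replicated ones. Deviations of treated arrays and their own controls from the group means correlated at 0.30 to 0.63. No arrays held identical values (highest correlation 0.98).

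The genes, gene lists, tests and alternatives were chosen with earlier results of these data known. Genes outside the 10 were named by rule: up to 4 per list by size of change, and the 3 most like each gene. Genes that make up a count of 5 or fewer, DUSP22, DUSP14 and ETV4, and those of the closing section were named after their values were seen. On simulated data of 11456 genes, log2 changes of 1 and 2 were recovered for 63% and 93% of changed genes (2DG), 57% and 88% (inhibitors) and 62% and 89% (rho0 controls). Unchanged genes made up 6.6%, 5.2% and 5.6% of the calls. The mtDNA-encoded genes were found through RefSeq gene IDs, since no symbol starts with MT-. Alternatives were other offsets, filters, scalings, probe set rules, no trend, no block, fewer lines or compounds, leaving out arrays and, added after the data were seen, leaving the GS arrays out of the fit.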

Additional observations from a re-analysis of the deposited data

Results flagged for a closer look

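SPRY2 stood out because its arrays moved in opposite directions in the lines under the same contrast, by at least 1 on the log2 scale on each side. VST added to GS went with a SPRY2 difference of 2.31 for HT-1080 against -2.27 for HT-29, and HT-29 minus HT-1080 was -4.58. The SPRY2 signal in HT-29 with VST was 16.9, under the lower limit of 45.5, and with it raised to the limit the HT-29 difference was -1.09 and the difference between lines -3.40. GS in rho0 cells went with a SPRY2 change of -1.20 in HT-29 and 1.27 in HT-1080, a difference of -2.47 between lines. The HT-29 rho0 array was taken at 14 h, and the HT-1080 rho0 array at 18 h with floating cells. Each side of both contrasts is 1 array, and neither difference between lines was tested.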

How the results depend on the processing

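Over single genes, 467 of 516 alternative values kept direction and side of the threshold, 39 lost the call, 9 gained one and 1 reversed. DUSP4 with inhibitors reversed to -0.73 with the mean of all probe sets. With 2DG, the count of 1 gene became 0 without the filter and without the trend, 2 with parental HT-1080 arrays only, and 4 with the parental GS arrays left out of the fit, with 0 to 0 when 1 array was left out. With inhibitors, the count of 7 became 4 with the mean of all probe sets, 3 with biguanides only and 3 with Rot and AA only, and ranged from 2 to 7 when 1 array was left out. In the rho0 controls, the count of 2 became 1 without the filter, 1 with the stricter filter (a signal of 114 on 6 arrays, which DUSP8 reached on 2 and so was not tested), and 4 with the deposited scaling, and ranged from 1 to 3 when 1 array was left out. The DUSP1 difference between lines was 0.48 with its dimmest probe set and 3.13 to 5.95 when 1 array was left out. Without the replicate block, the counts were 1 with 2DG and 6 with inhibitors, where DUSP6 was lost, and the DUSP1 difference was 4.30. The other causes of these shifts were not tested. Signals of DUSP6 and, on most arrays, DUSP8 in HT-1080 and of DUSP10 in HT-29 lie under the lower limit, as do those of DUSP6, DUSP8, DUSP16, SPRY2 and SPRY4 in starved HT-29 with VST, which limits their changes, and 3 arrays with 2DG limit the precision of both 2DG comparisons.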

Other observations

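Some immediate-early genes, picked here after their values were seen, also differed with VST in starved HT-29. Against GS replicate 1, EGR1 differed by -4.71, IER2 by -4.11, FOS by -3.95 and HBEGF by -2.78, while PHLDA1 differed by 1.28. In HT-1080 with GS and VST, EGR1 was 7.46 and FOS 5.19 above the untreated control on the log2 scale, beside 3.54 to 7.41 and 1.43 to 6.51 with GS alone on 2 arrays. Median signals of the HT-1080 controls were 35.1 for EGR1 and 9.99 for FOS, both under the lower limit. All values with VST rest on 1 array per line.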
